A study of Homo sapiens with 9 samples.

Results

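The comparison of Escherichia coli membrane vesicles with control in HCT8 cells rested on 3357 of the 26008 gene rows of the deposited count table. These were the rows with 10 or more counts in at least 3 of the 6 control and E. coli libraries. HCT8 is an established epithelial line from a human ileocecal colorectal adenocarcinoma, and all groups were of this 1 line. Cells were plated 16 h before the exposure, received fresh medium and were then exposed for 5 h. The E. coli group of 3 libraries received membrane vesicles of E. coli, and its titles carry the name of the laboratory strain MC1061. The V. cholerae group of 3 libraries, used below for contrast and for the spread, received membrane vesicles of Vibrio cholerae, with the strain name C6706 in its titles. The 3 control libraries are labelled as not treated, and the protocol gives their addition as 20 mM Tris-HCl. No source used here gives the vesicle dose. Whether the replicates were separate cultures is not in the labels, and p-values measure only how far these samples spread, which may be technical. Near the limit of the rule, 227 rows had 10 as the third-highest count of the 6 libraries, with a median sum of 58 counts, and 294 rows had 9, with a median sum of 52, and were not tested.

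Gram-negative bacteria shed vesicles of outer membrane that carry lipopolysaccharide, membrane proteins and periplasmic content, and gut epithelial cells take such vesicles up by endocytosis. Host cells can sense their cargo through pattern recognition receptors, which signal to NF-kB and interferon genes. The transcription factor NRF2 responds to oxidative stress and drives genes of detoxification and iron storage. Damaged or foreign cargo is brought to autophagy by receptors such as p62, the product of SQSTM1.

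Each row was read with the gene on its opposite strand. Rows whose exons overlap exons of another gene on the other strand held 83.2% to 87.2% of the counts of a library, and no source used here gives the strand setting of the authors' counting. A row is therefore written with its name and the gene opposite, such as C5orf45 (opposite SQSTM1), and the table does not settle from which of the 2 transcripts its reads came. Of the tested rows, 1651 had a coding gene opposite. The row of the keratin KRT8, which faces KRT18, held 7550 to 11346 counts per library. The USP37 row, opposite VIL1 of the brush border, held 417 to 800. By their own rows, KRT18 held 56 to 96 counts, and the other 8 genes of the colon epithelium list, EPCAM, KRT19, CDH1, CDH17, VIL1, CDX2, CEACAM5 and LGALS4, held 0 to 17. VIM, a mesenchymal marker, had 0 counts in its own row and in the VIM-AS1 row opposite it. PTPRC and CD3E of leukocytes stood at 0 by their own rows, and the leukocyte list summed to 46 to 89 counts in controls and 60 to 88 with E. coli vesicles. CD68 held 16 to 74 counts and LYZ 5 to 29 over the 9 libraries, no lower than most of the epithelial genes. Most markers of every list have no opposite row, so the labelled cell type was checked here by few genes and their transcripts may not be those of the rows' names.

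Library totals of the 6 libraries compared ran from 363557 to 477888 counts, and 3 counts were worth 6.113 to 9.068 CPM. CPM here are counts scaled to library size over the tested rows, with edgeR's TMM factors. Replicate 3 of every group stood apart from replicates 1 and 2, with no batch named in the labels. The chi-square per degree of freedom between replicates was 1.48 for controls 1 and 2 and 2.21 for E. coli 1 and 2, and it was 6.61 to 12.3 for pairs of these groups with replicate 3. E. coli replicates 1 and 2 also held fewer counts far from the 3′ ends of the opposite genes, as described below. Results are therefore given by group alone, with the replicate number as a block, and with E. coli replicate 3 as the only E. coli library. In bulk samples fewer cells with a transcript and less RNA per cell cannot be told apart.

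With the fit by group, 7 rows passed edgeR's quasi-likelihood test at a Benjamini-Hochberg adjusted p under 0.05, and all of them were higher with E. coli vesicles. This was 0.209% of the tested rows. They included the row opposite SQSTM1, the row opposite SPNS2, an exporter of sphingosine-1-phosphate, and the rows named SOCS2, for a suppressor of cytokine signalling, and B3GALT6, for a galactosyltransferase of the proteoglycan linker. Log2 fold changes ran from 1.46 to 3.13. In the E. coli group, 0 rows were lower by edgeR by group and by limma voom, whereas DESeq2 gave 23 lower rows beside 16 higher ones. Of all tested rows, 405 had an unadjusted p under 0.05 in edgeR.

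The C5orf45 row (opposite SQSTM1, the autophagy receptor p62) stood at 1620, 1410 and 1620 CPM in control replicates 1 to 3 and at 4810, 4920 and 3110 CPM with E. coli vesicles. Every E. coli library was above every control, and replicate 3 was the lowest of the E. coli group. The row rose by a log2 fold change of 1.46 ± 0.24 (SE, edgeR by group, adjusted p = 0.0108), and by 1.42 ± 0.14 with the replicate block. Its overlap with SQSTM1 lies 791 nt from the 3′ end of that gene, and its exons also lie opposite MRNIP-DT. Without control replicate 1 or 2, or E. coli replicate 1 or 2, the call by group was lost, with an adjusted p of up to 0.144, whereas with the block it stayed under 0.05 without any 1 of the 9 libraries. The MGAT4B row, also opposite SQSTM1 but 3475 nt from its 3′ end, had log2 ratios of -0.63, -1.07 and 0.19 in the 3 same-numbered pairs and did not pass.

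The MYBBP1A row (opposite SPNS2) stood at 115, 114 and 97.8 CPM in controls and at 572, 609 and 291 CPM with E. coli vesicles. All E. coli libraries exceeded all controls, and replicates 1 and 2 were about level. The row rose by a log2 fold change of 2.17 ± 0.31 by group (edgeR, adjusted p = 0.0025), and it passed in the fit by group and in the blocked fit without any 1 of the 9 libraries. It lies 69 nt from the 3′ end of SPNS2, and with the trend over that distance taken out its blocked log2 fold change was 1.86 (edgeR, adjusted p = 0.000119).

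The SOCS2 row held 19, 28 and 50 counts in controls and 248, 215 and 191 counts with E. coli vesicles, or 57.4, 76.3 and 102 CPM against 713, 618 and 434 CPM. It lies opposite the non-coding gene SOCS2-AS1, so its reads may be of either transcript. The E. coli libraries were all above the controls, with the smallest gap in replicate 3. The log2 fold change was 2.88 ± 0.36 by group (edgeR, adjusted p = 0.0013). It passed by group without any 1 library, and with the block it missed only without control replicate 2 (adjusted p = 0.0749). SOCS2 is a feedback inhibitor of growth hormone and cytokine receptors. Of the 4 tested rows opposite genes of JAK-STAT and cytokine signalling, 0 passed with the block in edgeR, beside 3.45% of all rows with a coding gene opposite. Their log2 fold changes ran from -0.35 for PTPN11 to 0.86 for PIAS3.

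The C11orf68 row has no exon on its opposite strand. It stood at 54.4, 60 and 141 CPM in controls and at 449, 460 and 525 CPM with E. coli vesicles. Here E. coli replicate 3 was the highest library, as control replicate 3 was among controls. The row rose by a log2 fold change of 2.45 ± 0.32 by group (edgeR, adjusted p = 0.0013), and it passed by group and with the block without any 1 library. The CCDC85B row, 414 nt downstream of FOSL1 of the AP-1 family on the other strand, stood at 93.7, 101 and 141 CPM in controls and 466, 356 and 241 CPM with E. coli vesicles. Its log2 fold change was 1.65 ± 0.29 by group (edgeR, adjusted p = 0.0189), and without control 1, control 2, E. coli 1 or E. coli 2 the adjusted p reached 0.26. The reads of CCDC85B were not assigned to FOSL1 here.

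The remaining rows of the fit by group rest on fewer counts. B3GALT6 held 4, 1 and 5 counts in controls and 22, 34 and 46 with V. cholerae vesicles, and 25, 17 and 33 counts with E. coli vesicles. Its control counts were all under 10, so it met the rule for tested rows only through the E. coli libraries. That its groups did not overlap follows from that rule, which also favoured a call of higher. The size of its change depends on those few control counts. The log2 fold change was 2.92 ± 0.47 by group (edgeR, adjusted p = 0.0103), lost without control replicate 2 or E. coli replicate 1 (adjusted p up to 0.104). LOC100130238, a locus with no coding gene opposite, held 6, 12 and 11 counts in controls and 98, 86 and 54 with E. coli vesicles, and gave log2 3.13 ± 0.57 by group (edgeR, adjusted p = 0.0197). It passed in 4 of the 9 fits that left out 1 library, with an adjusted p of up to 0.26 in the others.

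**Figure D1:**
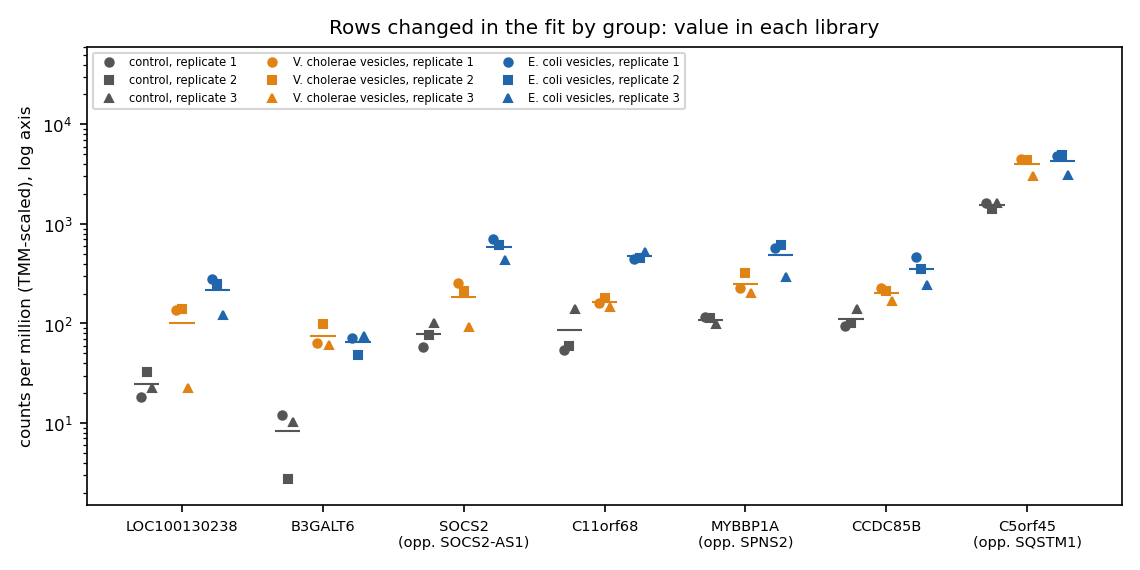
TMM-scaled CPM (log axis) of the 7 rows that rose in the fit by group, in each of the 9 libraries. Circles, squares and triangles are replicates 1, 2 and 3, and horizontal bars are group means. In each row the E. coli libraries lie above all 3 controls, from 3110 to 4920 against 1410 to 1620 for C5orf45 (opposite SQSTM1). For B3GALT6 this order follows from the rule for tested rows.

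With the replicate number as a block, 82 rows changed (2.44% of those tested), 53 of them higher (1.58%) and 29 lower (0.864%). Among the higher rows were ones opposite SQSTM1 and MAFK of the oxidative stress response, FTH1 of iron storage, PSMB8 of antigen processing and EXOC3 of the exocyst. Among the lower rows were ones opposite PCNA and TYMS of DNA replication and SELENOP of selenium transport. All 82 had the same sign of the log2 ratio in all 3 same-numbered pairs, as did 1359 of all tested rows (40.5%). The groups did not overlap in 36 of the 53 higher and 25 of the 29 lower rows, and in 520 of all tested rows (15.5%), 214 of them higher (6.37%) and 306 lower (9.12%). A batch term for replicate 3 in place of the block gave 117 rows (3.49%), 72 higher (2.14%) and 45 lower (1.34%), all 82 among them.

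The changes were smaller in replicate 3. The median log2 ratio of the 53 higher rows was 1.08 over replicates 1 and 2 and 0.59 in replicate 3, and for the 29 lower rows it was -1.25 and -0.57. With E. coli replicate 3 as the only E. coli library and the block kept, 33 rows passed (0.983%), 25 higher (0.745%) and 8 lower (0.238%), and 20 of these were among the 82, 17 higher and 3 lower. In that fit the lone library is assumed to vary like the other groups. The same reduction in the fit by group left 0 rows past edgeR's threshold, with 115 at an unadjusted p under 0.05. With the block and this lone library all 7 rows named above were higher, C11orf68 at log2 2.34 and CCDC85B, the smallest, at 1.09. These 7 rows and the 82 were picked by fits that held the same library and controls, so this is no independent check.

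The blocked count depended on single libraries. Leaving out control 2 gave 3 rows, control 1 gave 4, E. coli 1 gave 9 and E. coli 2 gave 34. Leaving out V. cholerae 1 gave 30 and V. cholerae 2 gave 50, and leaving out E. coli 3 gave 825. The count by group was 4 without control 1 or E. coli 2, 3 without control 2 or E. coli 1, and 278 without E. coli 3. With the 6 control and E. coli libraries alone the block gave 36 rows. The last row called was GRIN3B (adjusted p = 0.0454) and the first not called CCDC183 (0.0512).

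**Figure D2:**
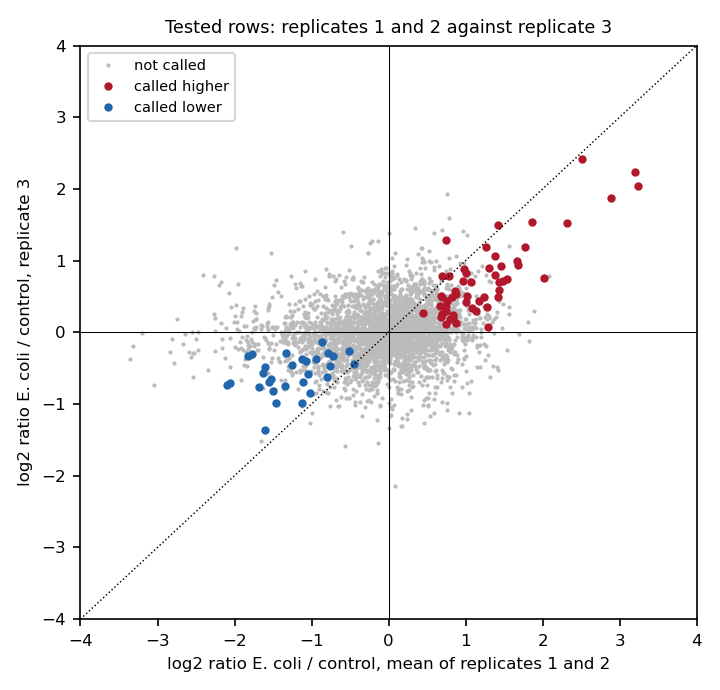
Log2 ratio of E. coli to control for each tested row, as the mean of replicates 1 and 2 (x axis) and in replicate 3 (y axis), with rows that passed with the replicate block in red (higher, 53) and blue (lower, 29) and the dotted line marking equal ratios. The coloured rows keep their sign on both axes and lie mostly nearer to 0 in replicate 3, with medians of 0.59 and -0.57 there against 1.08 and -1.25.

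Position along the opposite gene moved with the change in replicates 1 and 2. Counts in rows at least 3000 nt from the 3′ end came to 18.2% and 15% of those in rows under 500 nt in E. coli replicates 1 and 2. In E. coli replicate 3 the share was 30%, in controls 31.4% to 32.4%, and with V. cholerae vesicles 29.9% to 31.2%. Median log2 ratios in E. coli replicates 1 and 2 went from 0.28 in the 424 rows under 200 nt to -0.77 in the 152 rows at 5000 nt or more. In replicate 3 the same medians were 0.04 and 0.02.

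The changed rows followed this order. For the 37 higher rows with an opposite coding gene the median distance to its 3′ end was 404 nt, for the 20 lower ones 2868 nt and for all 1651 such rows 947 nt. With a smooth trend over distance taken out of each library, 53 of the 1651 rows passed with the block (3.21%), 38 higher (2.3%) and 15 lower (0.909%), against 40 without that step, and 38 of the 53 were among the 82. By group the same step gave 4 rows: MYBBP1A (opposite SPNS2), C5orf45 (opposite SQSTM1), TMEM184A (opposite MAFK) and TMEM120B (opposite RHOF). Rows read as mitochondrial sequence took 4.33%, 4.97% and 4.13% of counts with E. coli vesicles and 1.79%, 1.99% and 3.54% in controls, and their part in the results was not tested.

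**Figure D3:**
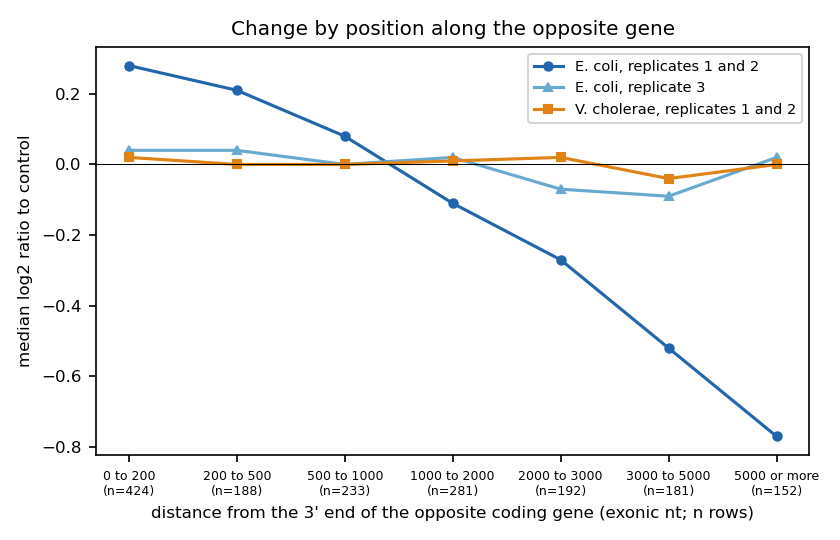
Median log2 ratio to control (y axis) of tested rows grouped by the distance in exonic nucleotides between their overlap and the 3′ end of the coding gene opposite (x axis, number of rows under each group). E. coli replicates 1 and 2 go from 0.28 to -0.77, whereas E. coli replicate 3 and V. cholerae replicates 1 and 2 stay between -0.09 and 0.04.

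Of the 13 tested rows opposite genes of NRF2 and oxidative stress, 4 rose and 1 fell with the block, with a median log2 fold change of 0.22 beside -0.01 for all tested rows. Of all 1651 rows with a coding gene opposite, 3.45% passed, 2.24% higher and 1.21% lower. The gene lists were drawn up with earlier results of these data known, so their counts describe and do not test. The 4 higher rows lie opposite SQSTM1, MAFK, CBR3 and FTH1, and the lower one opposite SELENOP. TMEM184A (opposite MAFK, a small Maf protein that pairs with NRF2) stood at 1130, 1070 and 1080 CPM in controls and 2620, 2730 and 1380 CPM with E. coli vesicles. There was no overlap of groups, and replicate 3 showed the smallest rise. Its blocked log2 fold change was 0.98 ± 0.16 (edgeR, adjusted p = 0.00486) and 0.83 with the distance trend taken out.

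BEST1 (opposite FTH1, the ferritin heavy chain that stores iron) stood at 275, 371 and 208 CPM in controls and 497, 623 and 364 CPM with E. coli vesicles. The ranges overlapped by E. coli replicate 3 and control replicate 2, and the row did not pass by group (edgeR, adjusted p = 0.241). Log2 ratios of same-numbered libraries were 0.84, 0.74 and 0.79, but numbers 1 and 2 are not shown to pair samples. The blocked log2 fold change was 0.80 ± 0.17 (edgeR, adjusted p = 0.0198). CBR3-AS1 (opposite CBR3, a carbonyl reductase) held 52, 53 and 29 counts in controls and 92, 117 and 44 with E. coli vesicles, a blocked log2 fold change of 0.93 ± 0.20 (adjusted p = 0.0209). Replicate 3 was the lowest library of each group, so that the groups overlapped without the block.

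CCDC152 (opposite SELENOP, the secreted selenium carrier) stood at 683, 529 and 220 CPM in controls and 227, 149 and 127 CPM with E. coli vesicles. The highest E. coli library lay just above the lowest control. The row fell by a blocked log2 fold change of -1.42 ± 0.20 (edgeR, adjusted p = 0.00153), by -0.99 with E. coli replicate 3 alone and by -1.47 with the distance trend taken out. The other 8 rows of this list did not pass. Negative ones lay opposite SOD2 (WTAP row, -0.67), SLC7A11, the cystine transporter (-0.48), CBR1 (-0.45), SQSTM1 (MGAT4B row, -0.42) and UGDH (-0.32). Positive ones lay opposite EPHX1, an epoxide hydrolase (0.47), PRDX1, a peroxiredoxin (0.26), and SOD2 (ACAT2 row, 0.22). Over all 13 rows of the list, 7 blocked log2 fold changes were positive and 6 negative.

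Of the 5 rows opposite genes of the interferon response and antigen processing, 2 rose and 0 fell with the block in edgeR, beside 2.24% higher and 1.21% lower of all rows with a coding gene opposite, and 4 had a positive log2 fold change (median 0.63). APOBEC3B-AS1 (opposite APOBEC3B, a cytidine deaminase of DNA) stood at 263, 273 and 177 CPM in controls and 725, 730 and 291 CPM with E. coli vesicles. E. coli replicate 3 stood just above the controls and far below the other two. Its blocked log2 fold change was 1.20 ± 0.18 (edgeR, adjusted p = 0.00232), and its exons also lie opposite APOBEC3A, so the reads may be shared. TAPSAR1 (opposite PSMB8, an immunoproteasome subunit, and TAP1, a peptide transporter) stood at 499, 510 and 389 CPM in controls and 889, 951 and 582 CPM with E. coli vesicles. No E. coli library was as low as a control. Its blocked log2 fold change was 0.77 ± 0.13 (adjusted p = 0.00566), and with E. coli replicate 3 alone it was 0.64 (adjusted p = 0.0111).

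The row opposite IFNGR2, a chain of the interferon gamma receptor, had log2 ratios of 0.50, 0.72 and 0.66 and an adjusted p of 0.0513 with the block in edgeR. Those opposite HLA-F at 0.41 and PSME1 at -0.09 did not pass. Genes of NF-kB and of pattern recognition had 2 tested rows each, opposite CFLAR and MIF and opposite PYCARD and IRF3. With the block 0 of these passed, beside 3.45% of all rows with a coding gene opposite. Their log2 fold changes ran from -0.19 to 0.32. CFLAR-AS1 (opposite CFLAR, an inhibitor of caspase-8, 14368 nt from its 3′ end) had the 0.32, and with the distance trend taken out it stood at 0.88 and passed (edgeR with the block, adjusted p = 0.0063). By the rows' own names the NF-kB and pattern recognition lists had 5 and 8 tested rows. Of these, 0 and 1 were higher and 0 lower with the block in edgeR, beside 1.58% higher of all tested rows. Their median log2 fold changes were 0.25 and 0.49. No tested row lay opposite a gene of the AP-1 and immediate early list.

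Of the 9 rows opposite genes of G1/S and DNA replication, 2 fell and 0 rose with the block in edgeR, beside 1.21% lower and 2.24% higher of all rows with a coding gene opposite, and the median log2 fold change was -0.41. ENOSF1 (opposite TYMS, thymidylate synthase) held 5705, 5997 and 5023 counts in controls and 4407, 3805 and 3766 with E. coli vesicles. PCNA-AS1 (opposite PCNA, the sliding clamp of DNA polymerases) held 2009, 2388 and 2029 counts in controls and 1518, 1158 and 1443 with E. coli vesicles. Each E. coli library was below its same-numbered control in both rows. Their scaled values overlapped between groups, with replicate 3 the lowest library of each group.

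The fall of ENOSF1 was -0.43 ± 0.09 (edgeR with the block, adjusted p = 0.0172), and that of PCNA-AS1 was -0.59 ± 0.12 (adjusted p = 0.0136). These lie 483 nt and 1094 nt from the 3′ ends of TYMS and PCNA, and with the distance trend taken out their values were -0.54 and -0.58 and still passed. With E. coli replicate 3 alone, neither row passed, with adjusted p of 0.264 and 0.183 in edgeR. GSE1 (opposite GINS2, a helicase subunit, 3 nt from its 3′ end) had a log2 fold change of -0.50 (adjusted p = 0.113), and with the trend taken out it was -0.67 and passed (adjusted p = 0.0366). The rows opposite E2F2 at -1.12, CHAF1A, a chromatin assembly factor, at -0.41 and RFC5, a clamp loader subunit, at 0.28 did not pass.

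Of the 11 rows opposite mitotic genes, 1 fell and 0 rose with the block in edgeR, with a median log2 fold change of 0.07, and the share lower among all rows with a coding gene opposite was 1.21%. HMMR-AS1 (opposite HMMR, a microtubule-binding protein of the spindle) stood at 1290, 1120 and 950 CPM in controls and 601, 534 and 720 CPM with E. coli vesicles. All E. coli libraries were below the controls, and the gap was smallest in replicate 3. The row fell by -0.84 ± 0.16 (edgeR with the block, adjusted p = 0.0101) and by -0.79 with the distance trend taken out. The rows opposite PLK1, a mitotic kinase, at 0.54, KIF20A, a kinesin, at 0.71 and CCNA2, cyclin A, at -0.23 did not pass.

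**Figure D4:**
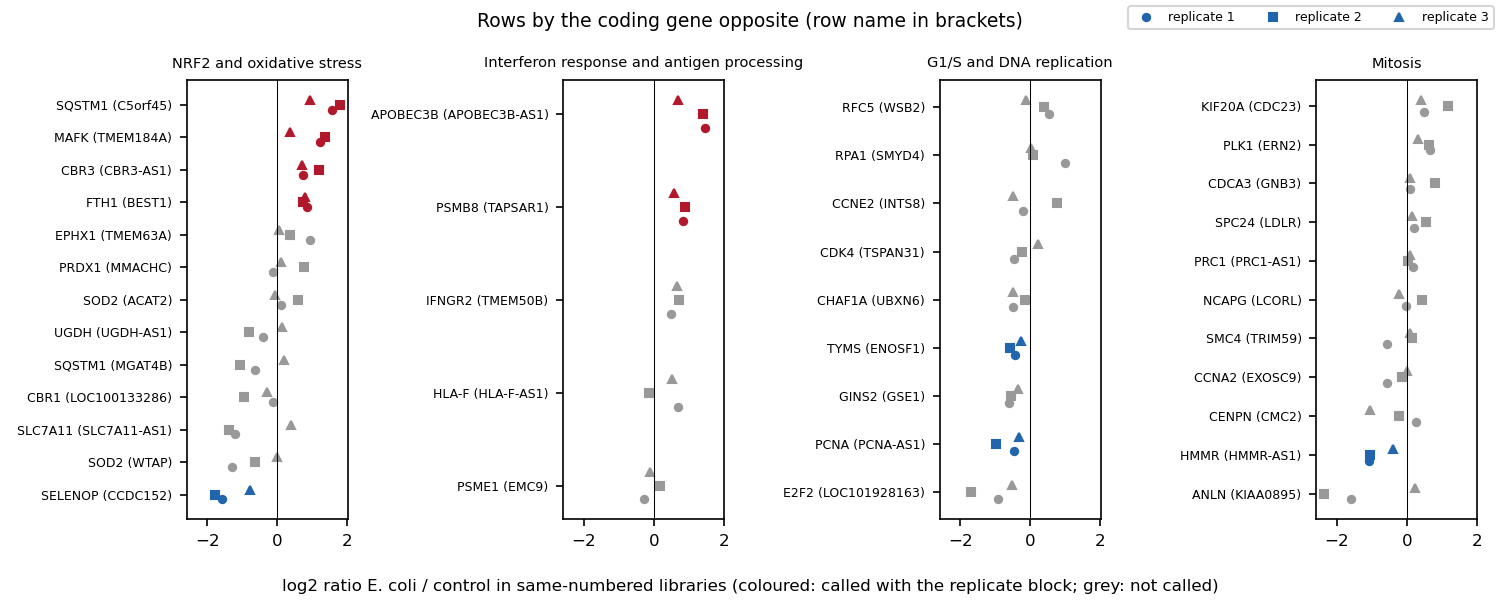
Log2 ratio of E. coli to control in same-numbered libraries (x axis; circle, square and triangle for replicates 1, 2 and 3) for every tested row opposite a gene of 4 lists, with rows that passed with the replicate block in red (higher) or blue (lower) and the others in grey. The red rows opposite SQSTM1, MAFK, CBR3, FTH1, APOBEC3B and PSMB8 lie above 0 in all 3 pairs, and the blue rows opposite SELENOP, TYMS, PCNA and HMMR below 0.

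The promoters of the replication and mitotic genes opposite falling rows are shown because genes of these classes are commonly controlled through E2F sites or the cell cycle homology region, CHR. Each run covers 250 bases before to 50 after the RefSeq gene start on GRCh38.p14, 5′ to 3′ on the gene's strand, with matches to TTTCCCGC or TTTGGCGC (E2F, either strand) or TTTGAA (CHR, either strand) in capitals. TYMS lies at chr18:657403-657702 on the plus strand, PCNA at chr20:5126573-5126872 on the minus strand and HMMR at chr5:163460382-163460681 on the plus strand.
TYMS: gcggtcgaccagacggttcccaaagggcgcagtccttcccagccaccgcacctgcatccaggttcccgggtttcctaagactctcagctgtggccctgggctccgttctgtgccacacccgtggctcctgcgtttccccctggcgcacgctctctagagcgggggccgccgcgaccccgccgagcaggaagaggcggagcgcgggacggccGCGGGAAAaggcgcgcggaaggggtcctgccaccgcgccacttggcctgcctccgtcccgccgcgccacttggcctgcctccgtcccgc
PCNA: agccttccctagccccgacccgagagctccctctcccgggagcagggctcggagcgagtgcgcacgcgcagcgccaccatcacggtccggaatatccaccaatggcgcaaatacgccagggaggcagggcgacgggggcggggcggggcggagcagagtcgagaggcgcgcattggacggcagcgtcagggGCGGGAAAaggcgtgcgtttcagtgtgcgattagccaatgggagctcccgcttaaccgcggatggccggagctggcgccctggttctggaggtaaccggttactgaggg
HMMR: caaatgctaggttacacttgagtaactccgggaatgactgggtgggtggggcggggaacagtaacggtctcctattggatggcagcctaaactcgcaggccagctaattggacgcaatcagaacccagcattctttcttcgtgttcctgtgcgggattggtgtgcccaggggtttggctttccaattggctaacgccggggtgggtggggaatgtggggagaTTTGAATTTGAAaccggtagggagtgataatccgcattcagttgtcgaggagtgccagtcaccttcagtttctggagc
The E2F letters begin at position -39 relative to the start of TYMS and at -59 for PCNA, and the CHR letters at -28 and -22 for HMMR, where the matches abut. Of the opposite coding genes of falling rows, 15 of 20 had a promoter in the table, of those of rising rows 29 of 37, and of those of all tested rows 1311 of 1581. The E2F letters were in 2 of the 15 promoters of falling rows (13.3%), those of PCNA and TYMS shown here, in 3.45% of those of rising rows, in 3.81% of those of all tested rows and in 2.31% of all 27305 promoters. The CHR letters were in 1 of the 15 (6.67%), that of HMMR, and in 13.8%, 8.09% and 15.4% of the other sets in the same order. The antioxidant response element TGACNNNGC (NRF2, either strand) was in 17.2% of promoters of rising rows, 20% of falling rows, 16.1% of all tested rows and 13.6% of the whole table, and SQSTM1 was not among its matches in this window. AP-1 letters TGANTCA were in 3.45%, 0%, 4.2% and 7.76%, and the NF-kB motif in 13.8%, 13.3%, 12.5% and 10.8%, in that order. The antioxidant response element matches were those of C6orf62, CBX3, DENND1A, UNKL and USP14 of rising rows and EPS8L2, PCNA and SELENOP of falling rows. MAFK, CBR3 and FTH1 were not among them either. All of these motif matches are descriptions and show no binding.

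The endocytosis, ion transport and autophagy lists had 10, 5 and 7 tested rows, with 1, 2 and 1 higher and 0, 1 and 0 lower with the block in edgeR. Their median log2 fold changes were 0.22, -0.06 and 0.28, and the share called of all rows with a coding gene opposite was 3.45%. The autophagy row is that of SQSTM1, counted also under oxidative stress, and SPNS2 is in the transporter list. PP7080 (opposite EXOC3, a subunit of the exocyst that tethers secretory vesicles) stood at 127, 161 and 200 CPM in controls and 334, 388 and 377 CPM with E. coli vesicles. The groups did not overlap, and E. coli replicate 3 was as high as the others. Its blocked log2 fold change was 1.19 ± 0.19 (edgeR, adjusted p = 0.00232), and the SLC9A3 row, also opposite EXOC3, had one of 0.43 and did not pass (adjusted p = 0.06). NME7 (opposite ATP1B1, the beta subunit of the sodium pump) stood at 1840, 1500 and 1210 CPM in controls and 2400, 2970 and 1720 CPM with E. coli vesicles, with overlap between groups. Its blocked log2 fold change of 0.63 ± 0.14 (adjusted p = 0.0241) became 0.39 with the distance trend taken out and did not pass (adjusted p = 0.0719). SMIM19 (opposite SLC20A2, a phosphate transporter) fell from 21, 31 and 24 counts to 7, 3 and 12, a blocked log2 fold change of -1.71 ± 0.41 (adjusted p = 0.0376). It lies 4041 nt from the 3′ end and had a log2 fold change of -1.29 with the trend taken out, which did not pass (adjusted p = 0.0757).

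A single row passed in each of the chromatin protein, ubiquitin and hypoxia lists, of 6, 7 and 5 tested rows, and all 3 were higher, beside 2.24% of all rows with a coding gene opposite. HNRNPA2B1 (opposite CBX3, the heterochromatin protein HP1 gamma) held 18, 16 and 17 counts in controls and 49, 45 and 34 with E. coli vesicles. The groups did not overlap, and the blocked log2 fold change was 1.37 ± 0.28 (edgeR, adjusted p = 0.0172). The partner row CBX3 (opposite HNRNPA2B1) had log2 ratios of -0.76, -1.48 and 0.64 and did not pass. THOC1 (opposite USP14, a proteasome deubiquitinase) had a blocked log2 fold change of 0.98 ± 0.23 (adjusted p = 0.0315), and 0.73 with the trend taken out, which did not pass (adjusted p = 0.0703). P4HA2-AS1 (opposite P4HA2, a collagen prolyl hydroxylase) rose by 0.72 ± 0.16 (adjusted p = 0.0222), with log2 ratios of 0.70, 0.94 and 0.49.

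The title of the series names epigenetics. Of the 7 tested rows opposite DNA methylation and histone modifying enzymes, 0 passed with the block in edgeR, beside 3.45% of all rows with a coding gene opposite. At that share, 0 of 7 rows does not set the list apart. Log2 fold changes ran from -1.26 for KDM5A, a histone demethylase, to 0.69 for KDM2B. By their own names 20 rows of this list were tested, with 0 higher and 1 lower, beside 1.58% higher and 0.864% lower of all tested rows. The KDM4A row fell from 106, 112 and 108 CPM to 43.1, 28.7 and 59.1 CPM (blocked log2 fold change -1.30 ± 0.28, adjusted p = 0.0209). It lies opposite the antisense gene KDM4A-AS1, and the KDM4A-AS1 row, which lies opposite KDM4A itself, had a log2 fold change of -0.07 (adjusted p = 0.872). None of the rows opposite genes of the unfolded protein response (7), the actin cytoskeleton (6), keratins and junctions (6), oxidative phosphorylation (8), splicing (8), p53 targets (5), translation (5) and lipid synthesis (3) passed with the block. With 3.45% of all such rows called, these lists are too small for that to set them apart. Over all lists 17 of 139 rows passed by the gene opposite (12.2%), beside 3.45% of all rows with a coding gene opposite, list rows included. As the lists were drawn up with earlier results of these data known, these shares do not test the lists. By the rows' own names 9 of 239 list rows passed (3.77%), beside 2.44% of all tested rows. With the distance trend taken out 17 list rows passed, 3 of them not called without that step, GSE1, CFLAR-AS1 and SIRT3 (opposite PSMD13, a proteasome subunit, log2 0.78 and 0.95), while NME7, SMIM19 and THOC1 no longer passed.

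Further rows named for the size of their change had no list in common. Among the higher ones, BAZ2A (opposite RBMS2, an RNA-binding protein) stood at 201, 325 and 164 CPM against 84.6, 106 and 91.7 CPM in controls. CHRNE (opposite C17orf107, and also MINK1 and GP1BA) stood at 940, 1120 and 595 CPM against 387, 488 and 422 CPM. Neither pair of groups overlapped, and their blocked log2 fold changes were 1.24 ± 0.24 and 1.00 ± 0.17 (edgeR, adjusted p = 0.0122 and 0.00494). RCN1, a calcium-binding protein of the endoplasmic reticulum, and NAIP, an inflammasome receptor of bacterial flagellin and secretion needles, rose by 1.16 ± 0.24 and 1.11 ± 0.27 with the block. RCN1 lies opposite the antisense gene ENSG00000255252, so its reads may be of either transcript. The NAIP row has no exon on its opposite strand, and the strand of its reads is not settled here. NAIP passed in 2 of the 9 fits that left out 1 library, with an adjusted p of up to 0.413 in the others.

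Several of the named lower rows lay over 3000 nt from the 3′ end of their opposite gene. DEAF1 (opposite EPS8L2, an actin regulator, 3504 nt away, and also TMEM80) stood at 559, 624 and 652 CPM in controls. With E. coli vesicles it stood at 319, 261 and 361 CPM. The groups did not overlap, replicate 3 included, and the blocked log2 fold change was -0.97 ± 0.15 (edgeR, adjusted p = 0.00232). It was -0.88 with E. coli replicate 3 alone (adjusted p = 0.000335) and -0.58 with the trend taken out (adjusted p = 0.0406). PRSS54 (opposite CCDC113, 3459 nt away) and CRYZ (opposite TYW3, 3370 nt away) fell by -1.29 and -1.20 with the block. With the trend taken out they fell by -0.93 and -0.85 and still passed. FZD4 (opposite PRSS23, a serine protease) lies nearer, at 1139 nt. It fell by -0.96 with the block and by -0.94 with the trend taken out, where it still passed. LNX1 (opposite FIP1L1, a polyadenylation factor, at the 3′ end) fell by -1.11 and by -1.26 with the trend taken out.

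For HDLBP (opposite SEPTIN2) at -1.21, MAPKAPK5-AS1 (opposite MAPKAPK5) at -1.14 and SRCRB4D (opposite ZP3) at -0.92, the log2 fold changes were -0.81, -0.62 and -0.69 with the trend taken out and did not pass, with adjusted p of 0.0771, 0.0809 and 0.0505. Their overlaps lie 4166, 11158 and 2365 nt from the 3′ end. ZFHX3 (opposite ZFHX3-AS1) at -0.97 and C10orf95 (opposite C10orf95-AS1) at -0.93 have no coding gene opposite and were not part of that fit. Of the 37 named rows, 13 passed with E. coli replicate 3 as the only E. coli library, 11 of the 21 higher and 2 of the 16 lower, DEAF1 and CCDC152.

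V. cholerae vesicles were set against the same controls, so the comparisons share them and their values are only given side by side. The tested rows were chosen by the control and E. coli libraries, so rows read mainly with V. cholerae vesicles were left out here and in the direct contrast. The numbers of calls are therefore not compared. In the V. cholerae comparison 13 rows passed with the block (0.387%), 10 higher (0.298%) and 3 lower (0.0894%). The blocked log2 fold change of C5orf45 (opposite SQSTM1) was 1.33 there and 1.42 with E. coli vesicles. B3GALT6 stood at 3.07 and 2.92, PP7080 (opposite EXOC3) at 1.33 and 1.19, TAPSAR1 (opposite PSMB8) at 0.71 and 0.77, CBR3-AS1 (opposite CBR3) at 1.15 and 0.93, and NME7 (opposite ATP1B1) at 1.12 and 0.63. MYBBP1A (opposite SPNS2) stood at 1.18 and 2.11, SOCS2 at 1.07 and 2.79, and APOBEC3B-AS1 (opposite APOBEC3B) at 0.41 and 1.20.

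The direct contrast tests the difference between the vesicle groups. By group 0 rows passed in edgeR, with 313 at an unadjusted p under 0.05, while DESeq2 gave 4 and limma voom 0. With the block 2 rows passed (0.0596%), both higher with E. coli vesicles. C11orf68 stood at 161, 179 and 148 CPM with V. cholerae vesicles and 449, 460 and 525 CPM with E. coli vesicles, a log2 difference of 1.57 ± 0.24 (edgeR, adjusted p = 0.0241). BAZ2A (opposite RBMS2) stood at 99.2, 70.3 and 80.0 CPM and at 201, 325 and 164 CPM, a log2 difference of 1.40 ± 0.24 (adjusted p = 0.0383). The groups did not overlap in either row, but the share of all tested rows without overlap in this contrast is not given here. Both calls were lost without some single libraries, with an adjusted p of up to 0.451 in edgeR, as listed further below. For SOCS2 the difference was 1.73 ± 0.30, for MYBBP1A 0.93 ± 0.19 and for APOBEC3B-AS1 0.80 ± 0.17, each with an adjusted p of 0.0728, and for C5orf45 it was 0.10 ± 0.14 (adjusted p = 0.76).

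**Figure D5:**
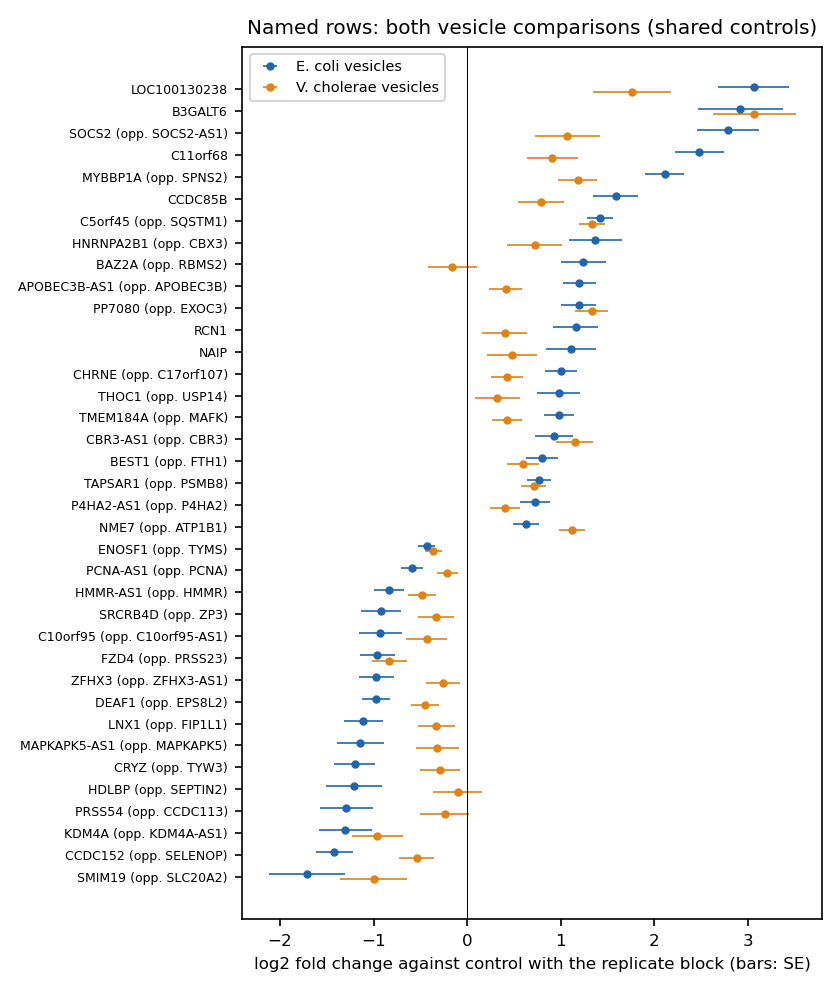
Log2 fold change against the shared controls with the replicate block (x axis, bars are SE) for the 37 named rows, for E. coli vesicles in blue and V. cholerae vesicles in orange. C5orf45 (opposite SQSTM1) lies at 1.42 and 1.33, whereas SOCS2 lies at 2.79 and 1.07 and C11orf68 at 2.48 and 0.91.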

How the data were processed

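Polyadenylated RNA of 9 libraries was read as single 50 bp reads. The authors deposited 1 table of raw counts per gene row, 1 column per library. Per the submitters' processing notes, HTSeq 0.6.1, Cufflinks 2.2.1, Bowtie2 2.2.3, TopHat2 2.0.12, FastQC, SAMtools 0.1.19 and hg19 were used. No source used here gives the strand setting, annotation or filters, and 0 sample columns were left unused.

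Counts were tested with edgeR 4.0.16 (R 4.3.3): TMM factors, glmQLFit with the robust option and glmQLFTest, in 1 fit of all 9 libraries by group (6 residual degrees of freedom) and in 1 with the replicate number as a block (4). P-values were adjusted over the 3357 rows, with calls under 0.05. An SE is the log2 fold change divided by the square root of F. Log2 ratios of single libraries use a prior count of 2. Labels give the numbers without saying that they pair samples, so the block is an alternative to the fit by group.

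Rows were matched by name to GENCODE 29 (GRCh38) for strand, opposite exons and exonic distance, 3314 of the 3357 tested. As the counts are on hg19, no coordinates of rows are given. The distance trend is a lowess (span 0.3) per library over 1651 rows, used as an offset. Promoters are RefSeq's, GRCh38.p14.

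Named rows were all those called by group, then of rows called with the block with 1 sign in all 3 pairs and a mean of at least 30 counts the 12 highest and 12 lowest, and called rows of the 23 gene lists. The members and lists were chosen with earlier results of these data known. A few rows and list members are not reported here.

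In simulated counts of 3357 rows, the fit by group recovered 0 of 67 rows changed 1.5-fold and 4 of 67 changed 2-fold. It recovered 41 of 66 changed 4-fold, with 1 false call. The blocked fit recovered 9, 29 and 61, with 4 false calls. The simulated counts had replicate effects shared by all groups and the spread of the blocked fit. They held no 3′ bias of E. coli replicates 1 and 2. This setting favours the blocked fit, so its recovery does not check its calls on the real counts. Alternatives were other size factors and filters, limma voom (limma 3.58.1), DESeq2 1.42.0, fewer libraries, rows with a coding gene opposite and each library left out. A batch term for replicate 3, E. coli replicate 3 alone and library size with the block were added after the data were seen.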

Additional observations from a re-analysis of the deposited data

Results flagged for a closer look

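Of the rows compared between the vesicle groups with the replicate block, 2 differed by edgeR's test of the difference itself. The C11orf68 row, with no exon opposite, was higher with E. coli than with V. cholerae vesicles by a log2 difference of 1.57 (adjusted p = 0.0241). Its size ran from 1.28 to 1.74 when 1 library was left out. The call was lost without control 1 (adjusted p = 0.0768), control 2 (0.0581), V. cholerae 1 (0.146), V. cholerae 2 (0.139) or E. coli 1 (0.451). The BAZ2A row, 300 nt upstream of the end of the opposite gene RBMS2, was higher by 1.40 (edgeR, adjusted p = 0.0383), and by 1.11 to 1.61 when 1 library was left out. Its call was lost without control 1 (0.194), control 2 (0.131), V. cholerae 1 (0.146), V. cholerae 2 (0.433), E. coli 1 (0.451) or E. coli 2 (0.0667). Among only the rows with a coding gene opposite BAZ2A had an adjusted p of 0.137, and of 0.0355 with the distance trend taken out (log2 difference 1.24). The part of that position in the result was not tested further.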

How the results depend on the processing

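The count of 7 rows by group became 40 with no filter on low counts (10 higher, 30 lower), 39 with DESeq2, 82 with the replicate block, 117 with a batch term for replicate 3, 800 with replicates 1 and 2 only (352 higher, 448 lower), 2 over rows with a coding gene opposite, 4 there with the distance trend taken out and 0 with E. coli replicate 3 alone. It stayed between 6 and 7 with other size factors, a CPM filter, 6 libraries, limma voom and no robust option. Leaving out each library gave 3 to 278 rows. With the replicate block, the count of 82 became 185 with a filter of 5 CPM (90 higher, 95 lower), 36 with 6 libraries, 40 over rows with a coding gene opposite, 53 there with the trend taken out and 33 with E. coli replicate 3 alone, and 86, 77, 105 and 73 with RLE factors, library size, DESeq2 (49 higher, 56 lower) and limma voom. Leaving out each library gave 3 to 825, with 34 without E. coli 2 and 50 without V. cholerae 2. The direct contrast went from 0 to 2 with the replicate block, to 4 with DESeq2 and to between 0 and 219 without 1 library. List members called went from 17 to 9 by own name. For the named rows, 390 of their alternative log2 values kept direction and side of the threshold, 113 now passed it, 15 no longer did, and 0 turned.

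Same-numbered control and E. coli libraries had residual correlations of 0.245, 0.0859 and 0.417, where control 2 with E. coli 1 had 0.276 and control 1 with E. coli 2 had 0.14, so numbers 1 and 2 are not shown to pair samples and the block mainly sets replicate 3 apart. All 82 rows called with the replicate block were also called with the batch term. The common dispersion was 0.0656 by group, 0.0244 with the block and 0.0204 with the batch term. At this depth 1909 of the tested rows had a mean under 30 counts. Of 67 simulated 2-fold changes, the fit by group recovered 4 and the blocked fit 29. The simulated counts had replicate effects shared by all groups, a setting that favours the blocked fit.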

Other observations

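Some rows that the naming rule passed over changed alike with both kinds of vesicles, and they were picked with their values already known. TMEM120B (opposite RHOF) had control values of 3170, 3480 and 3110 CPM. E. coli vesicles gave 5440, 5290 and 4370 CPM and V. cholerae vesicles 4950, 5020 and 3870 CPM. All vesicle libraries were above all controls. Its blocked log2 fold changes were 0.62 and 0.50, and it passed by group with the distance trend taken out for E. coli vesicles (0.66, edgeR adjusted p = 0.0187). ANKRD13C, with no exon opposite, held 7, 9 and 14 counts in controls, 20, 29 and 39 with E. coli vesicles and 25, 20 and 55 with V. cholerae vesicles, blocked log2 fold changes of 1.61 and 1.44. The comparisons share their controls.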
